A study of Homo sapiens with 6 samples.

Results

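Tight junction and apical polarity genes were followed in human mammary epithelial cells that overexpress SNAI1. A list of 44 genes was chosen by symbol, and 41 of them had a probe set annotated with exactly 1 gene symbol, out of 18417 genes that had one. The brightest such probe set over all arrays stood for each gene. OCLN, F11R and MAGI1 had none and received no value. The cells were MCF10A-SNAI1, on 3 Affymetrix HuGene arrays, and MCF10A, on another 3. MCF10A is an immortalized, non-tumorigenic mammary epithelial line. MCF10A-SNAI1 was derived from it in another laboratory by transfection with pBeta-SNAI1-Flag, in which a chicken beta-actin promoter with a CMV enhancer drives Flag-tagged SNAI1, followed by puromycin selection. The MCF10A control was not transfected, and it was an ATCC stock given by a source other than the maker of MCF10A-SNAI1. Plasmid, selection and line history therefore cannot be told apart from SNAI1 itself. The sources used here do not say whether MCF10A-SNAI1 is 1 clone. Both lines grew in the same mammary epithelial growth medium with cholera toxin.

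Tight junctions close the gap between neighbouring epithelial cells near their apical side. Claudins form the sealing or ion-selective strands, MARVEL-domain proteins such as occludin and tricellulin accompany them, and the ZO proteins and cingulins tie the strands to actin. The position of this belt is set by polarity complexes: the Crumbs and PAR complexes, the second with an atypical protein kinase C, define the apical side, and Scribble, DLG and LGL proteins define the basolateral side. SNAI1 encodes Snail, a zinc finger repressor that binds E-boxes in epithelial gene promoters, and loss of tight junctions and of apical-basal polarity is a known part of the epithelial-mesenchymal transition.

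SNAI1 gave log2 values of 10.50, 10.53 and 10.50 in MCF10A-SNAI1, against 5.80, 5.73 and 5.77 in MCF10A (log2 fold change 4.75 ± 0.056, SE, limma adjusted p = 7.06e-08). All log2 fold changes are MCF10A-SNAI1 minus MCF10A, and errors after them are standard errors. Levels are log2 values of 1 probe set, and the order of levels between genes was not read. The array medians lay between 6.04 and 6.09. Across probe sets, arrays of the same line correlated at r = 0.995 to 0.996, and arrays of different lines at 0.977 to 0.978. Of the markers of mammary epithelial cells, EPCAM, CDH1, KRT5 and KRT14 of 6 measured were lower by over 2-fold in MCF10A-SNAI1, with EPCAM at 5.17 to 5.69 in MCF10A-SNAI1 and 9.11 to 9.17 in MCF10A. KRT18 was lower (-0.65 ± 0.080, adjusted p = 0.00106) and KRT8 higher (0.95 ± 0.064, adjusted p = 6.22e-05), both by under 2-fold. Of 6 mesenchymal markers, CDH2, FN1, ZEB1 and ZEB2 were higher by over 2-fold, TWIST1 was higher by under 2-fold (0.47 ± 0.080, adjusted p = 0.00507), and VIM was at 0.06 ± 0.060 (adjusted p = 0.601). For ZEB2 the log2 fold change was 1.74 by its brightest probe set and 1.01 by the mean of its 2 probe sets. The 4 measured endothelial markers had mean levels of 4.80 to 5.20 in MCF10A-SNAI1 and 4.74 to 5.17 in MCF10A, and none was called. Of 4 measured leukocyte markers, CD14 passed both thresholds (1.03 ± 0.159, adjusted p = 0.00321) but not without MCF10A-SNAI1 array 2 or 3 or MCF10A array 2 or 3 (0.89 to 1.04), with the pan-leukocyte marker PTPRC at a mean of 3.22 in MCF10A-SNAI1 and 3.23 in MCF10A. Their part in the results on junction genes was not tested. In RNA from a whole culture, a lower share of cells with a transcript and less transcript per cell cannot be told apart.

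MARVELD2 and LSR, the pair that builds junctions where 3 cells meet, fell the most among the 41 genes, followed by CLDN1, the atypical kinase PRKCZ and the LGL protein LLGL2. Most claudins, the ZO proteins, the cingulins, CRB3, PARD3 and PRKCI had no called difference. A gene was called at a limma adjusted p below 0.01, adjusted over all 33297 probe sets, with a change over 2-fold. Called lower in MCF10A-SNAI1 were 7 of the 41 (17.1%): MARVELD2, LSR, CLDN1, PRKCZ, LLGL2, PARD6B and SCRIB. Of all 18417 genes, 467 (2.54%) were called lower. The list was chosen with earlier results of these data known, so these shares are a description and not a test. JAM3 was the only 1 of the 41 called higher, or 2.44%, against 571 (3.10%) of all genes. At any fold, 13 of the 41 (31.7%) had an adjusted p below 0.01, against 4279 (23.2%) of all genes. The arrays of the lines did not overlap for 19 of the 41 (46.3%), against 8895 (48.3%) of all genes, so non-overlap alone did not set these genes apart. The median log2 fold change over the 41 was -0.12, against -0.01 over all genes.

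**Figure D1:**
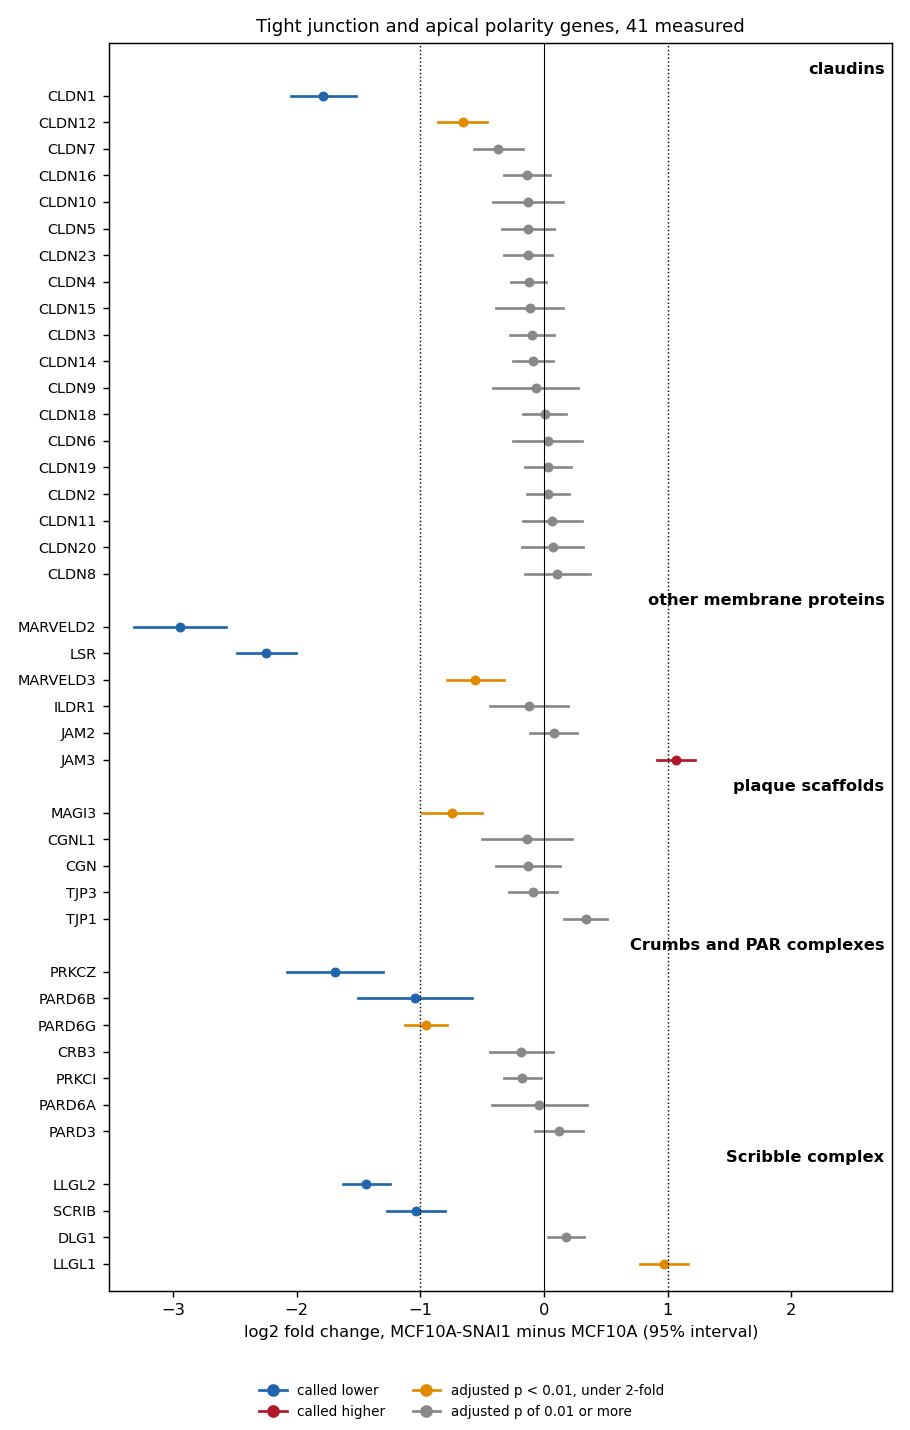
Log2 fold change (MCF10A-SNAI1 minus MCF10A, horizontal axis) of the 41 measured tight junction and apical polarity genes, grouped by role, with 95% intervals from limma. Blue marks the 7 genes called lower, red JAM3, orange the 5 genes at an adjusted p below 0.01 that changed less than 2-fold, and grey the other 28.

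MARVELD2 encodes tricellulin, the MARVEL protein that seals the points where 3 cells meet. It was measured at 4.45, 4.90 and 4.61 in MCF10A-SNAI1, against 7.35, 7.84 and 7.60 in MCF10A, a 7.70-fold lower level (log2 fold change -2.94 ± 0.157, adjusted p = 2.21e-05). The groups lay far apart, and the log2 fold change ranked 59 from the lowest of the 18417 genes. LSR encodes angulin-1, which recruits tricellulin to these points. Its values were 7.47, 7.20 and 7.11 in MCF10A-SNAI1, against 9.55, 9.46 and 9.51 in MCF10A, 4.74-fold lower (-2.25 ± 0.10, adjusted p = 9.97e-06). Its MCF10A arrays lay close together, and each MCF10A-SNAI1 array was below them. ILDR1, the related angulin-2, had 5.74, 5.56 and 5.77 in MCF10A-SNAI1 and 6.10, 5.72 and 5.62 in MCF10A. These overlapped (-0.12 ± 0.133, adjusted p = 0.635), and the 95% interval of the difference ran from -0.43 to 0.20. ILDR2, another angulin gene, measured in the wider list described last, was not called either (-0.23 ± 0.076, adjusted p = 0.077).

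MARVELD3, another MARVEL protein of tight junctions, was at 6.44, 6.14 and 6.34 in MCF10A-SNAI1, against 6.97, 6.76 and 6.85 in MCF10A. It was lower without overlap but by under 2-fold (-0.56 ± 0.097, adjusted p = 0.00559). For OCLN, which encodes occludin, the only probe set was annotated to both OCLN and the pseudogene OCLNP1, whose signals cannot be told apart. That probe set had 3.60, 3.51 and 3.63 in MCF10A-SNAI1, against 6.15, 6.49 and 6.16 in MCF10A (-2.69 ± 0.105, adjusted p = 5.20e-06), and taking it for OCLN brings the genes called lower to 8.

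Junctional adhesion molecules are immunoglobulin proteins of the same contacts, and JAM3 went the other way. JAM3, or JAM-C, was measured at 7.80, 7.84 and 7.75 in MCF10A-SNAI1, against 6.79, 6.74 and 6.66 in MCF10A, 2.10-fold higher (1.07 ± 0.064, adjusted p = 3.81e-05). Every MCF10A-SNAI1 array was above every MCF10A array. JAM2, its heterophilic partner, lay between 3.80 and 4.10 on all arrays, with overlap between the lines (0.08 ± 0.080, adjusted p = 0.592). Of the 6 measured membrane proteins other than claudins, 2 were called lower and 1 higher, where all genes gave 2.54% and 3.10%.

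**Figure D2:**
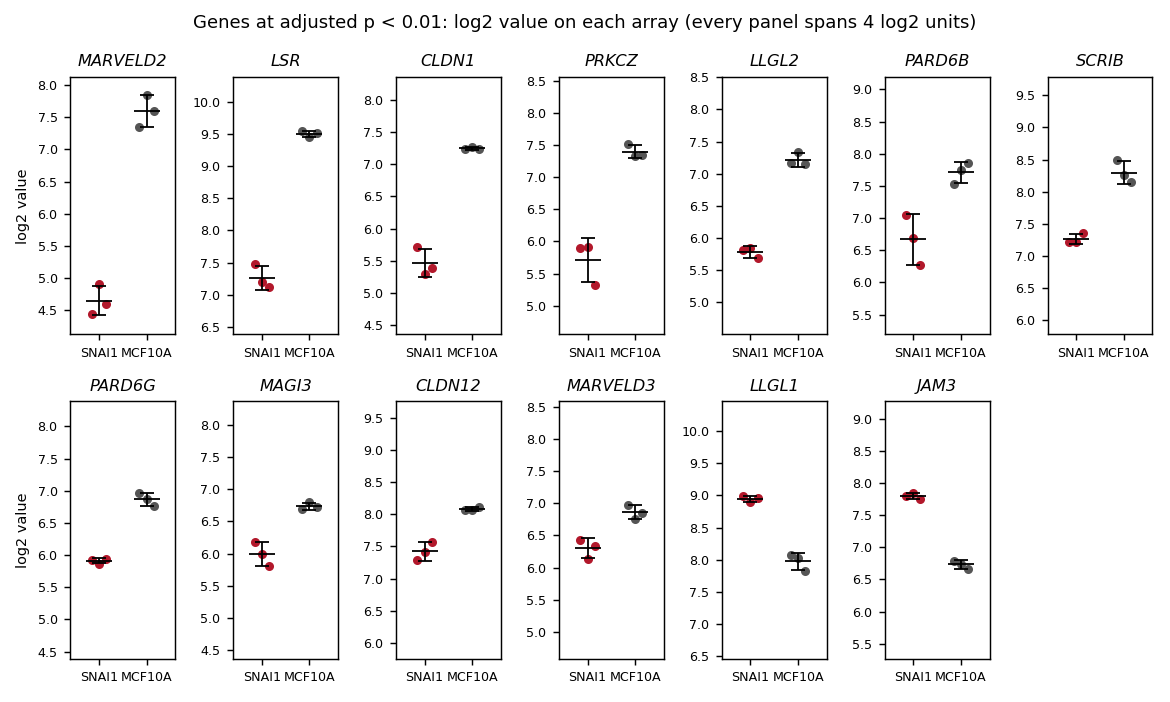
Log2 value (vertical axis) on each array of the 13 tight junction and polarity genes at an adjusted p below 0.01, 8 of them called, with the MCF10A-SNAI1 arrays (marked SNAI1) left of the MCF10A arrays, a line at each mean and bars of 1 SD (n = 3). In the panels of LLGL1 and JAM3 all MCF10A-SNAI1 points lie above the MCF10A points, and in the other 11 below them.

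Among the 19 measured claudins, CLDN1 was the 1 called (5.26% lower, against 2.54% of all genes). CLDN1 is a barrier-forming claudin of skin and of many other epithelia. It was at 5.71, 5.29 and 5.38 in MCF10A-SNAI1, against 7.23, 7.27 and 7.24 in MCF10A, 3.44-fold lower (-1.78 ± 0.112, adjusted p = 4.61e-05). The MCF10A arrays were nearly equal, and the MCF10A-SNAI1 arrays were more spread. CLDN12, a claudin that lacks the usual PDZ-binding tail, was at 7.29, 7.41 and 7.58 in MCF10A-SNAI1 and 8.06, 8.06 and 8.12 in MCF10A. It was lower by under 2-fold (-0.66 ± 0.084, adjusted p = 0.00126), and by the methods' t-test the adjusted p was 0.0132, above the threshold.

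CLDN3, CLDN4 and CLDN7, claudins of simple and glandular epithelia, passed no threshold. CLDN7 was at 6.18, 6.03 and 6.13 in MCF10A-SNAI1, against 6.43, 6.40 and 6.63 in MCF10A. Its arrays did not overlap, but the adjusted p was 0.0172 (-0.37 ± 0.084, 95% interval -0.57 to -0.17). CLDN4 was at 4.75, 4.79 and 4.75 in MCF10A-SNAI1 and 4.83, 4.89 and 4.94 in MCF10A, below the median of all values (6.05) on every array (-0.12 ± 0.059, adjusted p = 0.209). CLDN3 was at 6.82, 6.75 and 6.69 in MCF10A-SNAI1 and 6.78, 6.80 and 6.97 in MCF10A (-0.10 ± 0.075, adjusted p = 0.459). The 95% intervals of CLDN3 and CLDN4 left room for changes of -0.28 to 0.08 and of -0.27 to 0.02.

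The remaining 14 claudins are known mainly from other tissues, such as CLDN5 of blood vessels, CLDN11 of myelin and testis, CLDN18 of stomach and lung and CLDN16 and CLDN19 of the kidney. Their log2 fold changes lay between -0.14 for CLDN16 and 0.11 for CLDN8, with adjusted p of 0.297 or more. In 9 of the 19 claudins the mean level was below the median of all values in both lines, and CLDN8 and CLDN10 were in the lowest 20% (under 3.94) in both. A probe set near the low end of the scale has little room to fall, so a lower level there may not be detectable on these arrays. The 17 claudins at an adjusted p of 0.01 or more had 95% intervals that together ran from -0.57 to 0.37. Array 1 of MCF10A-SNAI1 was the highest of its line in 12 of these 17, against 39.2% of all genes, and its part in their values was not tested.

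**Figure D3:**
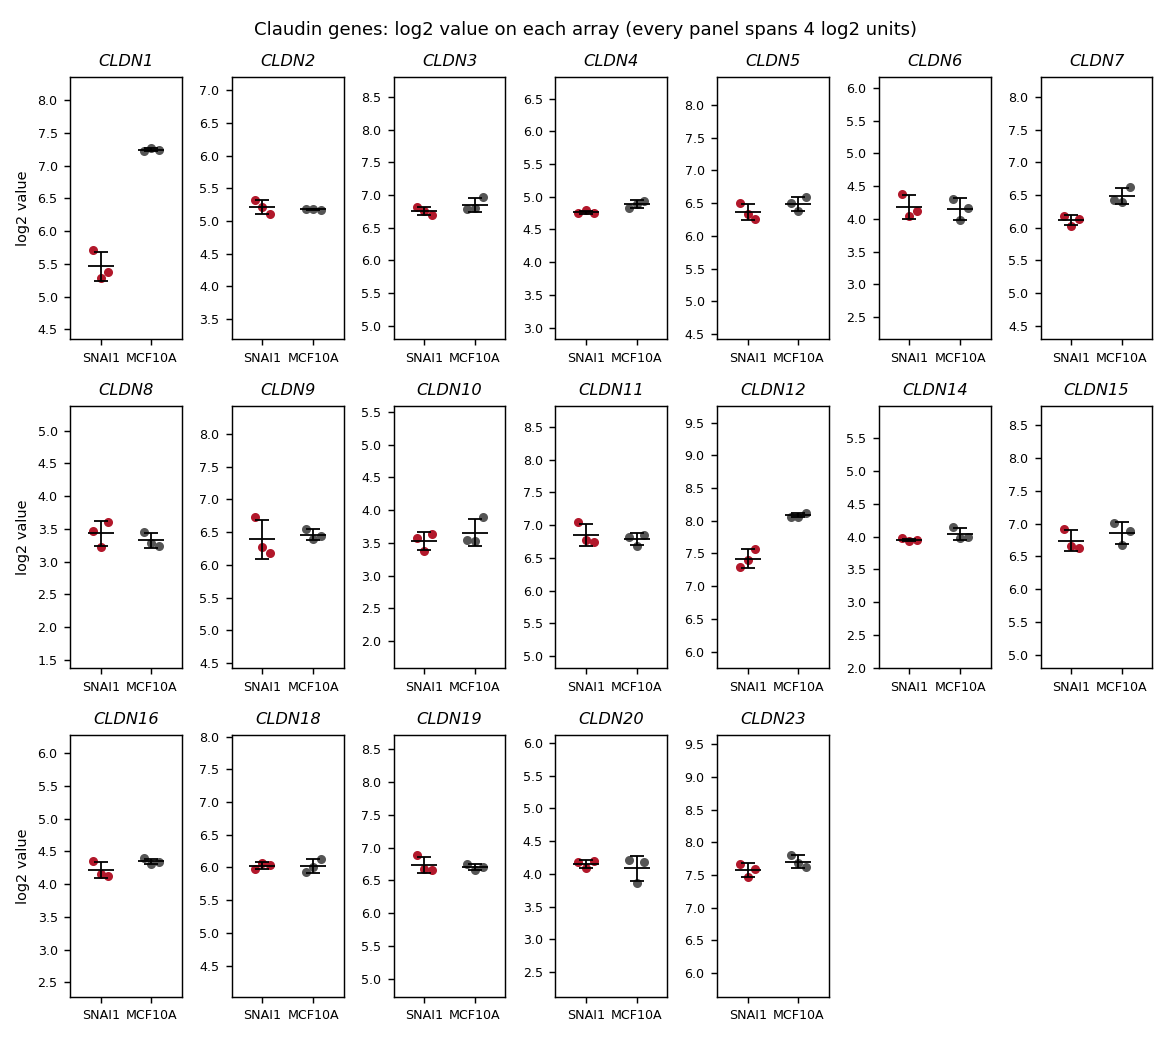
Log2 value (vertical axis) of the 19 measured claudins on each array, with MCF10A-SNAI1 (marked SNAI1) left of MCF10A for each gene, lines at the means and bars of 1 SD (n = 3). CLDN1 and CLDN12 show separate groups, CLDN7 a small gap, and most of the others overlap.

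The E-box that Snail binds was looked for in the promoters because it is a textbook feature of genes that Snail represses directly. The letters CAGGTG were searched on both strands, where the other strand reads CACCTG, in 300-base RefSeq promoter windows of GRCh38.p14, from 250 bases before a transcription start to 50 after it. Windows were given for 29 of the 41 genes, and none for LLGL2, PARD6B, SCRIB and JAM3. Of the 48 windows of these genes 15 held the E-box (31.2%), against 7231 of 35116 windows in all (20.6%). Counted by gene, it was in 1 of the 4 matched genes called lower (PRKCZ), in 12 of the 25 matched genes not called and in 3514 of 14239 measured genes (24.7%). With 4 matched genes called lower, these shares were not compared. A match is not a binding site, and the absence of these letters concerns this window only.

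The 250 bases before the start are printed for the 2 genes with the lowest log2 fold changes, for PRKCZ as the called gene with a match, and for CRB3 and CLDN7, whose windows held the most matches. They run 5′ to 3′ on the strand of the gene, and capitals mark the E-box. They are MARVELD2 at chr5:69414866-69415115 on the + strand, LSR at chr19:35248752-35249001 (+), PRKCZ at chr1:2050161-2050410 (+), CRB3 at chr19:6464021-6464270 (+) and CLDN7 at chr17:7262479-7262728 (-).
MARVELD2: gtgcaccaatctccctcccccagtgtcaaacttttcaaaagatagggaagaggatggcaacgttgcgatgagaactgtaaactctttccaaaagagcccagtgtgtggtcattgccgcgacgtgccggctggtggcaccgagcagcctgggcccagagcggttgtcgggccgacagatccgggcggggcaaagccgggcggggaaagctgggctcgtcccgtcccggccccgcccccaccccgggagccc
LSR: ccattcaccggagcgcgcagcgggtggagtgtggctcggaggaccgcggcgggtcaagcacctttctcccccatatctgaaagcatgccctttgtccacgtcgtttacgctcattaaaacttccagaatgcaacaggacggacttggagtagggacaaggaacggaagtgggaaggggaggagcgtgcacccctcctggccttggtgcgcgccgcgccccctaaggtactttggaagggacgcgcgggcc
PRKCZ: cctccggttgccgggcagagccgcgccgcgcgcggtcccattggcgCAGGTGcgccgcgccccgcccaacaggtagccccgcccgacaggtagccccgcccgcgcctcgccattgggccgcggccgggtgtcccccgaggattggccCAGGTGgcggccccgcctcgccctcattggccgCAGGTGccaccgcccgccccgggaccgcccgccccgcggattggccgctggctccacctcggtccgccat
CRB3: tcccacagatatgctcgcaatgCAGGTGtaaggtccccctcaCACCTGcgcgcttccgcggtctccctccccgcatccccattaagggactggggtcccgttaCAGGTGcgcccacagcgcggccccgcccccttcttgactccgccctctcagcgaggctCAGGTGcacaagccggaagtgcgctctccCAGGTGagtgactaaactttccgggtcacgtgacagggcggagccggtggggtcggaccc
CLDN7: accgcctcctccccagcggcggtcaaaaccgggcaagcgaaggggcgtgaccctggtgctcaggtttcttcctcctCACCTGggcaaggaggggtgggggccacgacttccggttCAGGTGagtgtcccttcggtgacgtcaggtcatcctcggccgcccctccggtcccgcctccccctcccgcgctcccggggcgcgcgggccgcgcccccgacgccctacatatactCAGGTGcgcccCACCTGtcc

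MARVELD2 and LSR showed no capitals over the whole stretch. The PRKCZ stretch, chosen from 4 windows of the gene as the one with the most matches, held 3. In CRB3 there were 5, the first bases of which lay 228, 208, 147, 89 and 60 bases before the start. CLDN7 held 4 in the printed stretch, at 174, 135, 20 and 9 bases before the start, and 1 more after it. Windows with 5 or more were rare, 33 of 35116 (0.094%). Among the 29 genes with windows, CRB3 and CLDN7 had one. Neither was called, and a link between matches and fold change was not tested.

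The plaque proteins, which connect the strands to the cytoskeleton, had no called member among 5 measured. Of all genes 2.54% were called lower and 3.10% higher, so this count does not set the group apart. TJP1, encoding the central scaffold ZO-1, was at 9.38, 9.56 and 9.45 in MCF10A-SNAI1, against 9.12, 9.20 and 9.06 in MCF10A. All MCF10A-SNAI1 arrays were above the MCF10A arrays, but the adjusted p was 0.0161 (0.34 ± 0.075, 95% interval 0.16 to 0.51). TJP3, or ZO-3, had -0.09 ± 0.081 (adjusted p = 0.555). Cingulin, from CGN, had -0.13 ± 0.110 (adjusted p = 0.522), and paracingulin, from CGNL1, -0.13 ± 0.153 (adjusted p = 0.641). The arrays of the lines overlapped for these 3. MAGI3, an inverted membrane-associated guanylate kinase, was at 6.18, 5.99 and 5.80 in MCF10A-SNAI1, against 6.69, 6.80 and 6.72 in MCF10A. It was lower by under 2-fold (-0.74 ± 0.102, adjusted p = 0.00174). Its adjusted p was 0.0200 by the methods' t-test and 0.0101 by limma without MCF10A array 2, both above the threshold.

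In the apical complexes, 2 of the 7 measured genes were called lower (28.6%, against 2.54% of all genes). They were 1 of the 2 atypical kinases and 1 of the 3 PAR6 genes. PRKCZ encodes protein kinase C zeta. It was at 5.90, 5.91 and 5.32 in MCF10A-SNAI1, against 7.52, 7.33 and 7.35 in MCF10A, 3.22-fold lower (-1.69 ± 0.163, adjusted p = 3.53e-04). Array 3 of MCF10A-SNAI1 lay below the other two, and by the methods' t-test the adjusted p was 0.0110, above the threshold. PRKCI, which encodes the other atypical kinase, protein kinase C iota, was at 8.67, 8.69 and 8.63 in MCF10A-SNAI1 and 8.84, 8.91 and 8.77 in MCF10A. The groups did not overlap, but the difference was small and not called (-0.18 ± 0.064, adjusted p = 0.101, 95% interval -0.33 to -0.02). The 95% intervals of PRKCZ and PRKCI did not meet, but the difference between these genes was not tested.

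The PAR6 proteins are the adaptors that join the kinase to CDC42 and to Crumbs. PARD6B was at 7.05, 6.70 and 6.27 in MCF10A-SNAI1, against 7.53, 7.75 and 7.86 in MCF10A (-1.04 ± 0.194, adjusted p = 0.0074). It was the most variable of the 41 in MCF10A-SNAI1 (SD 0.39), and its call was the least stable. Leaving out MCF10A array 1, 2 or 3 gave -1.13, -1.03 and -0.97 with adjusted p of 0.0168, 0.0310 and 0.0317, and leaving out MCF10A-SNAI1 array 2 or 3 gave -1.06 and -0.84 with 0.0250 and 0.00937, none of which was called. Of the 6 arrays, only MCF10A-SNAI1 array 1 could be left out without losing the call (-1.23), and it was lost by the methods' t-test (adjusted p = 0.0608). PARD6G was tighter, at 5.92, 5.87 and 5.94 in MCF10A-SNAI1, against 6.96, 6.87 and 6.76 in MCF10A. At -0.96 ± 0.072 (adjusted p = 1.09e-04) it stayed just under 2-fold, and it passed that line (-1.01) without MCF10A array 3. PARD6A overlapped (-0.04 ± 0.162, adjusted p = 0.920, 95% interval -0.42 to 0.35).

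CRB3, the Crumbs protein of mammalian epithelia, was at 6.88, 6.49 and 6.63 in MCF10A-SNAI1 and 6.91, 6.76 and 6.86 in MCF10A. The arrays overlapped (-0.18 ± 0.107, adjusted p = 0.314), and the 95% interval ran from -0.43 to 0.07. PARD3, the scaffold that anchors PAR6 and the kinase, was at 8.49, 8.74 and 8.66 in MCF10A-SNAI1 and 8.48, 8.58 and 8.46 in MCF10A (0.12 ± 0.082, adjusted p = 0.400). Both are core members of their complexes, and neither was called.

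The basolateral group differed within itself, with LLGL2 and SCRIB called lower and LLGL1 higher by under 2-fold. LLGL2 was at 5.82, 5.85 and 5.69 in MCF10A-SNAI1, against 7.16, 7.34 and 7.15 in MCF10A, 2.70-fold lower (-1.44 ± 0.081, adjusted p = 2.89e-05). LLGL1, the second LGL gene, was at 8.99, 8.89 and 8.96 in MCF10A-SNAI1, against 8.08, 8.03 and 7.82 in MCF10A (0.97 ± 0.083, adjusted p = 1.88e-04). The LLGL1 difference reached that line without MCF10A array 1 (1.02) or without MCF10A-SNAI1 array 2 (1.00). Within each array, the log2 value of LLGL1 minus that of LLGL2 was 3.17, 3.04 and 3.28 in MCF10A-SNAI1, against 0.91, 0.68 and 0.67 in MCF10A. This pair was chosen after its values were seen, and the difference of 2 probe sets shows unequal change, not which gene has more transcript.

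SCRIB encodes Scribble, the scaffold of the group. It was at 7.22, 7.22 and 7.35 in MCF10A-SNAI1, against 8.49, 8.26 and 8.15 in MCF10A (-1.03 ± 0.099, adjusted p = 3.31e-04). Without MCF10A array 1 the value was -0.94 and no longer past 2-fold. DLG1 encodes another scaffold of this side and lay between 9.97 and 10.06 in MCF10A-SNAI1 and between 9.80 and 9.88 in MCF10A. The groups did not overlap, but the difference was not called (0.18 ± 0.060, adjusted p = 0.0789). All 4 genes of this group had arrays that did not overlap between the lines, 2 with lower and 2 with higher values in MCF10A-SNAI1, where 48.3% of all genes had no overlap.

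A wider list of 54 tight junction and polarity genes outside the 44 had 49 measured. It was chosen by role, also with earlier results of these data known. Of these 6 were called lower (12.2%, against 2.54% of all genes) and 2 higher (4.08%, against 3.10%), and the median log2 fold change was 0.01. CXADR, an immunoglobulin adhesion protein of tight junctions, was at 5.44, 4.97 and 5.20 in MCF10A-SNAI1, against 6.93, 6.80 and 6.67 in MCF10A (-1.60 ± 0.130, adjusted p = 1.58e-04). PATJ, the multi-PDZ scaffold of the Crumbs complex, was at 6.85, 6.81 and 6.96 in MCF10A-SNAI1, against 8.27, 8.48 and 8.34 in MCF10A (-1.49 ± 0.079, adjusted p = 2.16e-05). The others called lower were USP53, a tight junction protein of the ubiquitin protease family (-1.43), WWC1, the KIBRA scaffold (-1.32), CAB39, a partner of the polarity kinase STK11 (-1.13), and the FERM protein gene EPB41L4B (-1.08, and -0.997 without MCF10A array 2, just under 2-fold).

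The 2 genes of this list called higher were PARD3B and DLG4. PARD3B, a paralog of PARD3, was at 7.39, 7.30 and 7.26 in MCF10A-SNAI1, against 6.03, 6.09 and 6.30 in MCF10A (1.18 ± 0.087, adjusted p = 9.99e-05). DLG4, better known as the synaptic scaffold PSD-95, was higher on every MCF10A-SNAI1 array than on any MCF10A array (1.09 ± 0.10, adjusted p = 2.76e-04). MPDZ, the paralog of PATJ, was higher by under 2-fold (0.93, adjusted p = 1.60e-04), as was PALS1, which links Crumbs to either scaffold (0.97, adjusted p = 1.06e-04), which passed 2-fold without MCF10A array 2 (1.03) or MCF10A-SNAI1 array 1 (1.01). On each array, MPDZ minus PATJ was 1.45, 1.55 and 1.44 in MCF10A-SNAI1, against -0.94, -0.93 and -0.94 in MCF10A, a pair also chosen after its values were seen. The PAR1 family of polarity kinases was mixed, with MARK1 and MARK2 lower by under 2-fold (-0.71 and -0.73). MARK4 was higher by under 2-fold (0.49, adjusted p = 0.00233), and MARK3 had no called difference (0.01, adjusted p = 0.926). The small GTPase RAB13 of tight junctions was higher by under 2-fold (0.67, and 0.95 as the mean of its 2 probe sets).

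**Figure D4:**
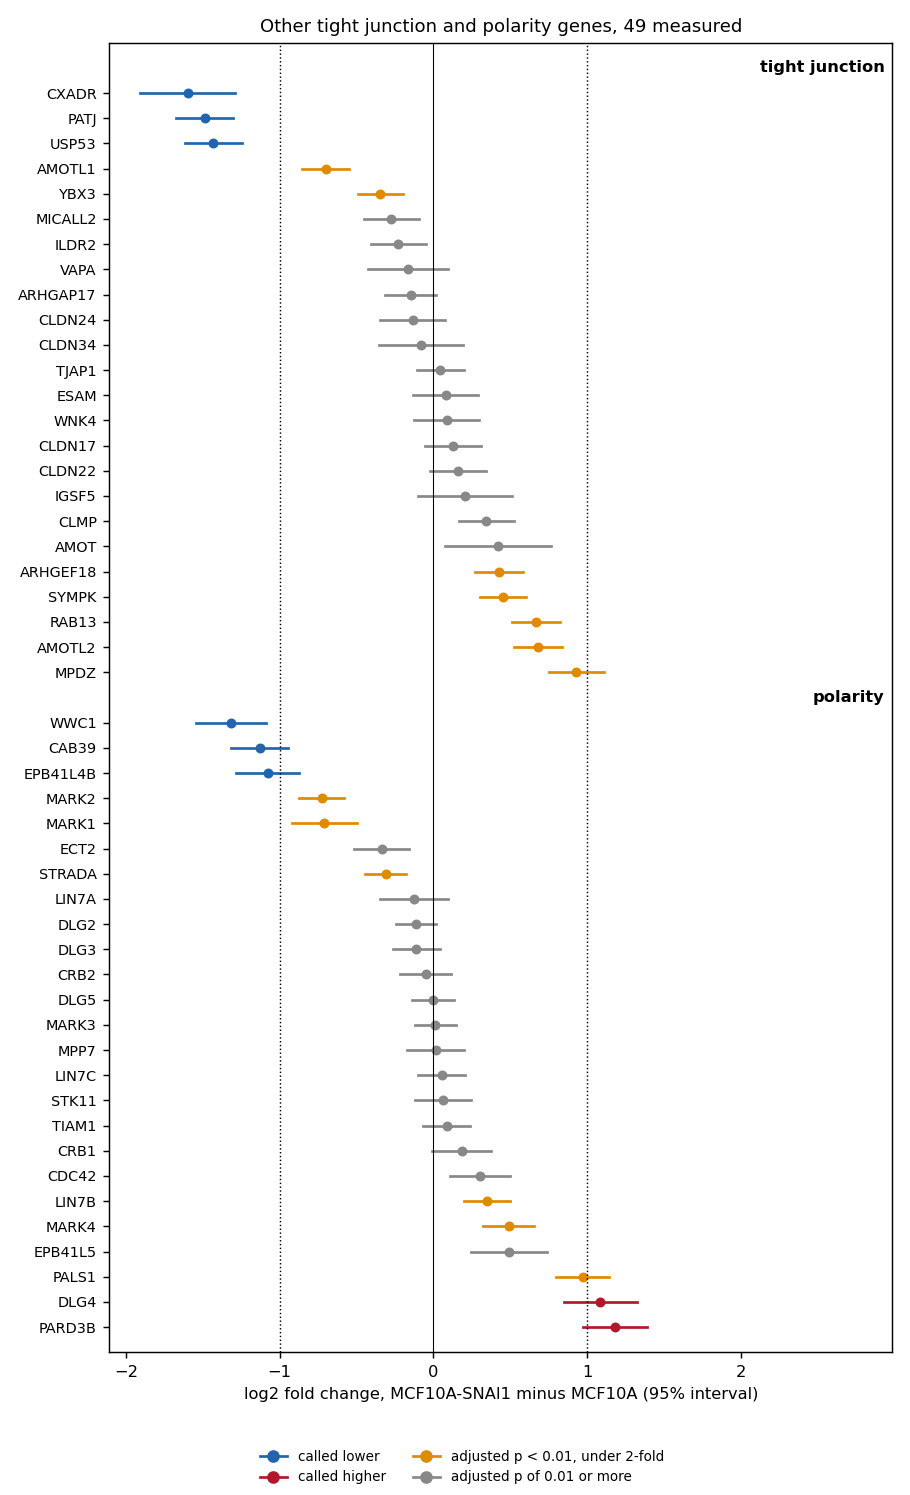
Log2 fold change (MCF10A-SNAI1 minus MCF10A, horizontal axis) with 95% intervals from limma for the 49 measured genes of the wider tight junction and polarity list. Blue marks the 6 called lower, with CXADR the lowest at -1.60, and red PARD3B and DLG4, the 2 called higher.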

How the data were processed

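Total RNA of 3 MCF10A-SNAI1 and 3 MCF10A samples was hybridised to 1 array each. The deposited table held log2 values of 33297 probe sets. The study's methods state GC RMA in GeneSpring. By contrast, GCOS, MAS5 and Expression Console 1.1 appear in the submitters' processing notes, so the program that made the table is not settled, and background correction can change the fold of dim probe sets. Values were used as deposited. Gene symbols came from the platform annotation, with 19460 probe sets carrying 1 symbol, 1754 several and 12083 unnamed here. The brightest 1-symbol probe set stood for a gene. MARVELD2 had 2 probe sets, with equal values. MCF10A-SNAI1 minus MCF10A was tested with limma 3.58.1 in R 4.3.3 (lmFit, eBayes), and p-values were adjusted over every probe set by Benjamini-Hochberg. The call used the study's thresholds, adjusted p below 0.01 and over 2-fold. The 44 genes, the wider list and the markers were chosen with earlier results of these data known. Called genes of these lists are named. With 3 arrays a line, which limits precision, a permutation test of 1 gene cannot go below p = 0.1, so none is given.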

Additional observations from a re-analysis of the deposited data

How the results depend on the processing

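The 47 listed genes at an adjusted p below 0.01, SNAI1 among them, were followed, and the other listed genes were not. All 47 kept their direction under quantile normalization, median centring, the mean of a gene's probe sets or leaving out an array. Having been picked by p on the same arrays favours a kept direction. Trended moderation, the methods' t-test, the replicate block and either filter on dim probe sets do not alter a fold change. Direction could therefore not change under them, and only calls or an adjusted p below 0.01 could be lost. Of the 8 called tight junction and polarity genes, MARVELD2, LSR, CLDN1, LLGL2 and JAM3 kept their call under all the settings named here. With no fold threshold, 11 of the 41 genes passed lower and 2 higher, 4279 genes passed in all, and the wider list had 11 lower and 10 higher. The CD14 call was lost under the block (adjusted p = 0.0174) and by the methods' t-test (0.0368). Leaving out 1 array gave 5 to 7 of the 41 genes called lower, 1 to 2 called higher and 1027 to 1054 genes in all. The methods' t-test called 5 lower, without PARD6B and PRKCZ. Same-numbered arrays of the lines deviated together at r = 0.115, 0.122 and -0.006, and arrays of different numbers at -0.134 to 0.034. Whether arrays of the same number share a preparation cannot be told from these values. With the replicate number as a block 6 of the 41 were called lower and 1028 genes in all, and PARD6B was lost (adjusted p = 0.0304). A filter at the median of all values left out 13 of the 41 genes, none of them called, and 857 genes were called in all. Probe sets of a low level limit what these arrays could show. Of the 19 claudins, 9 lay below the median of all values in both lines, and 2 of these in the lowest 20%.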
